A study of Mus musculus with 2 samples.

Results

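The mouse Toll-like receptor genes Tlr1, Tlr2, Tlr3, Tlr4, Tlr5, Tlr6, Tlr7, Tlr8, Tlr9 and Tlr13 were followed in CD11b+ cells of subcutaneous pancreatic tumours. They were taken by symbol, and all 10 were found among the 49585 gene identifiers of the deposited count table, each with at least 1000 reads over both libraries. Toll-like receptors are membrane proteins that recognise microbial molecules with a leucine-rich ectodomain and signal through a cytoplasmic TIR domain. Tlr1, Tlr2, Tlr4, Tlr5 and Tlr6 act at the cell surface, mostly on lipids and proteins of bacteria, and Tlr3, Tlr7, Tlr8, Tlr9 and Tlr13 act in endosomes on nucleic acids, where macrophages and dendritic cells digest what they have engulfed. All but Tlr3 signal through the adaptor MyD88, and Tlr3 and Tlr4 through TRIF, towards NF-kB and interferon regulatory factors.

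The knockout library came from mice labelled NRP2f/fCSF1R-iCRE on a BL6 background that received tamoxifen daily, by intraperitoneal injection, once their tumours could be felt. In them the inducible Cre recombinase, driven by the Csf1r promoter of monocytes and macrophages, deletes the floxed Nrp2 gene. The control library came from mice of the same genotype, for which the labels name no tamoxifen, so the deletion and the drug cannot be told apart. Tumours of mouse pancreatic cancer cell lines were harvested at 15 days, CD11b+ cells were isolated with magnetic beads, and RNA of 3 animals was pooled into 1 library per group. With 1 pooled library in each group there are no replicates, and no p-value was computed.

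The knockout library held 68554172 counted reads and the control library 64153676. Nrp2 had 1017 reads in the knockout library and 9686 in the control library, 9.71-fold lower. Itgam, which encodes the CD11b antigen of the selection, was at 422 and 294 CPM (counts scaled to library size) in the knockout and control libraries. Where a gene exceeded 4 reads in only 1 library, its median was 24 reads for the knockout library and 47 reads for the control library. Reads were divided by these values to approximate captured fragments, and each interval given is a 95% interval on that scale: the exact Clopper-Pearson interval for a ratio or share, and the exact Poisson interval for a level. The intervals cover counting error only, since reads carry no molecular identifiers, and not differences between animals or pools. Levels are CPM per kilobase of the gene's merged exons (RPKM), and ratios are knockout over control after TMM scaling of the libraries. A gene is called higher or lower where its ratio passes 2-fold in the knockout library.

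Of the 10 receptors, Tlr7 and Tlr13 were called higher in the knockout library and Tlr3 was called lower, all of them endosomal. None of the 5 surface receptors passed 2-fold. Over the 14420 genes with 50 reads or more, 10.8% were called higher and 14.7% lower, 25.5% either way. Over the 9054 genes with 1000 reads or more, which include all 10 receptors, the calls were 4.5% higher and 4.02% lower, 8.52% either way, beside 2 higher and 1 lower of the 10 receptors. The interval lay above 1 for Tlr2, Tlr4, Tlr7, Tlr8 and Tlr13, 5 of 10, beside 12.6% of the genes with 50 reads or more and 18.7% of those with 1000 or more. It lay below 1 for Tlr1 and Tlr3, 2 of 10, beside 11.1% and 15.2%. The whole interval was past 2-fold for 1 receptor, Tlr7, on the higher side (0.853% and 1.2% of genes) and for 0 on the lower side (1.03% and 1.17%). For Tlr5, Tlr6 and Tlr9 the interval included 1, so a difference was not detectable at this depth. In bulk RNA, fewer cells of a type and less RNA per cell cannot be told apart. The authors' deposited table was made from the same 2 libraries, so the same direction that it gave each receptor is no separate evidence.

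**Figure D1:**
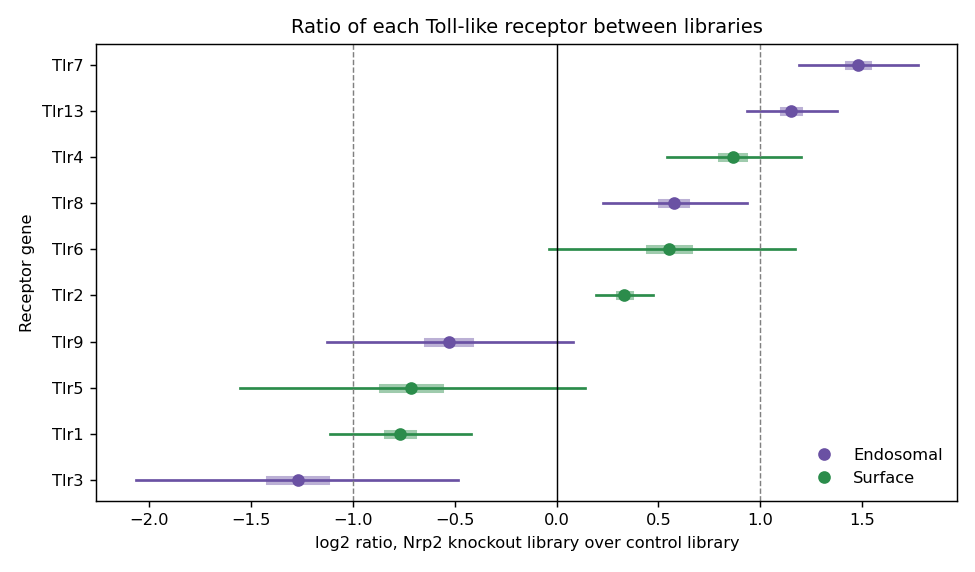
Log2 ratio of each receptor, knockout library over control library. Thin lines are 95% intervals on fragments, thick pale bars the intervals on undivided reads, and dashed lines mark 2-fold. Tlr7 (1.48) and Tlr13 (1.15) lie past the dashed line on the right and Tlr3 (-1.27) past the one on the left, while the thin lines of Tlr5, Tlr6 and Tlr9 cross 0.

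Tlr2, which pairs with Tlr1 or Tlr6 to bind bacterial lipopeptides, was the most abundant receptor of both libraries. This gene (GRCm38 chromosome 3, 83836272 to 83841767, minus strand) had 35675 reads in the knockout library and 27761 in the control library, or 177 RPKM (168 to 186) and 140.3 RPKM (129 to 152). Its ratio was 1.26 (1.14 to 1.39), so the knockout library was higher by less than 2-fold.

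Of the 2 partners of Tlr2, Tlr1 alone had an interval that left out 1. Tlr1, which joins Tlr2 for triacylated lipopeptides (chromosome 5, 64924679 to 64933563, minus strand), had 3692 reads in the knockout library and 6158 in the control library, or 16.5 and 28 RPKM. It was 1.7-fold lower in the knockout library (1.34 to 2.16). Tlr6, which joins Tlr2 for diacylated lipopeptides (chromosome 5, 64952031 to 64960097, minus strand), had 2301 and 1539 reads in the knockout and control libraries, or 9.22 and 6.29 RPKM. Its ratio of 1.47 had an interval of 0.976 to 2.25. Tlr6 was at 0.56 of the level of Tlr1 in the knockout library and at 0.224 of it in the control library.

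These partners are neighbouring copies, and their counts are less certain than those of the other receptors. Over 910 bases of coding sequence, positions 1294 to 2203 of Tlr1 and 1333 to 2242 of Tlr6 counted from the A of the start codon, 900 bases were identical (98.9%). Of all 50-base words in the GENCODE transcripts, 15.4% of those of Tlr1 and 12.3% of those of Tlr6 also occur in a transcript of another gene, mostly in each other, whereas for the other 8 receptors the share was between 0 and 5.3%. The sources used here do not say how reads from such words were assigned. The 2 longest runs identical in both genes are shown, since a read inside them cannot be told between Tlr1 and Tlr6. The first covers positions 1468 to 1696 of Tlr1 and the second positions 1735 to 1942, and both are given 5′ to 3′ from the GENCODE M21 transcripts.
Shared run of 229 bases: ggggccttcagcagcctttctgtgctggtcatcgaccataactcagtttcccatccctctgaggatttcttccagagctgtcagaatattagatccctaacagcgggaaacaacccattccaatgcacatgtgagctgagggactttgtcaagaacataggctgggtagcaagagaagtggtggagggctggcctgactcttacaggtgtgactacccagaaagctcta
Shared run of 208 bases: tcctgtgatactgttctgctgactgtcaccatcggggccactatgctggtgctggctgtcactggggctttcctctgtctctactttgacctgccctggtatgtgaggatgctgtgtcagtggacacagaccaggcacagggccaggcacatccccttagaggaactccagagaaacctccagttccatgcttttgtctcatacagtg

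Tlr4, the receptor of lipopolysaccharide (chromosome 4, 66827584 to 66930284, plus strand), showed the largest ratio among the surface receptors. It had 8695 reads in the knockout library and 4681 in the control library, or 23.4 RPKM (21 to 25.9) and 12.8 RPKM (10.4 to 15.6). The ratio was 1.82 (1.45 to 2.3), and the level intervals of the libraries did not overlap. Tlr5, the flagellin receptor (chromosome 1, 182954788 to 182976044, plus strand), stood with Tlr3 at the low end of both libraries. It had 687 and 1104 reads in the knockout and control libraries, or 2.14 and 3.51 RPKM, a ratio of 0.61 with an interval of 0.341 to 1.1.

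Among the endosomal receptors, Tlr7 had the largest ratio of all 10. Tlr7 binds single-stranded RNA (chromosome X, 167304929 to 167330558, minus strand). It had 15502 reads in the knockout library and 5456 in the control library, or 56.7 RPKM (52.4 to 61.2) and 20.4 RPKM (16.8 to 24.4). The ratio was 2.78 (2.28 to 3.42). Of the genes with 1000 reads or more, 1.63% had a ratio as high or higher.

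Tlr13, a receptor of bacterial ribosomal RNA in mice (chromosome X, 106143204 to 106160493, plus strand), was second in abundance in both libraries. It had 22634 reads in the knockout library and 9978 in the control library, or 78.5 RPKM (73.6 to 83.7) and 35.3 RPKM (30.7 to 40.4). Its ratio was 2.22 (1.91 to 2.59), so the interval began short of 2-fold. Tlr8, known in humans as a receptor of single-stranded RNA and the neighbour of Tlr7 on the same strand (chromosome X, 167242696 to 167264329), had 6480 and 4266 reads in the knockout and control libraries, or 27 and 18.1 RPKM. Its ratio of 1.49 (1.17 to 1.91) was smaller than that of Tlr7, and the intervals of both ratios did not overlap.

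Tlr9 and Tlr3 had ratios below 1, and the interval of Tlr3 alone left out 1. Tlr9, the receptor of unmethylated CpG DNA (chromosome 9, 106222598 to 106226883, plus strand), had 1396 reads in the knockout library and 1974 in the control library, or 5.99 and 8.64 RPKM, a ratio of 0.693 (0.458 to 1.06). Tlr3, the receptor of double-stranded RNA (chromosome 8, 45395665 to 45411080, minus strand), had 640 reads in the knockout library and 1511 in the control library, or 1.83 RPKM (1.21 to 2.68) and 4.42 RPKM (3.03 to 6.23). It was 2.41-fold lower in the knockout library (1.4 to 4.19). Of the genes with 1000 reads or more, 2.51% had a ratio as low or lower. Tlr7 stood at 30.9 times the level of Tlr3 in the knockout library and at 4.61 times in the control library. The exons of Tlr3 overlap those of Gm45542, an antisense gene, over 381 bases, and that gene was listed at 0 reads in both libraries.

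**Figure D2:**
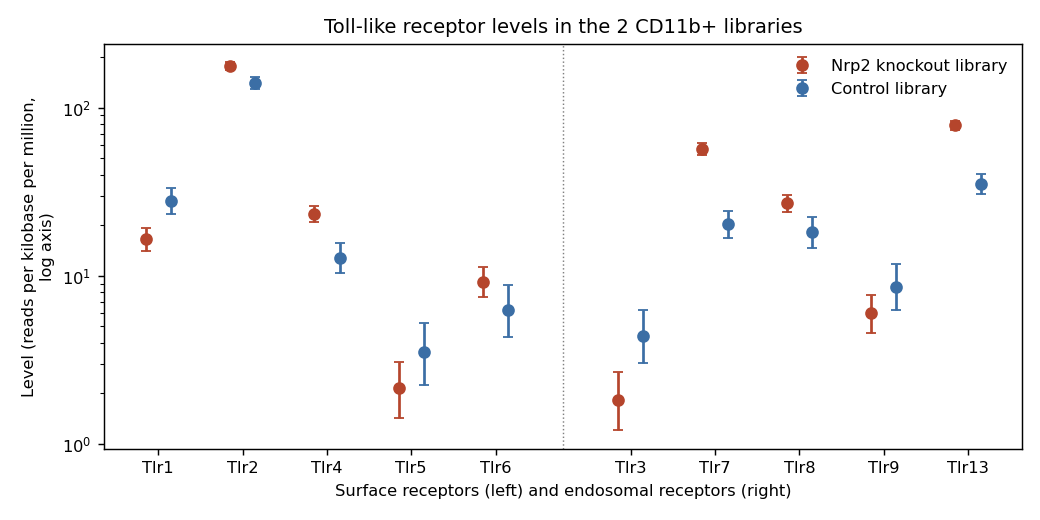
Level of each receptor in the knockout library (red) and the control library (blue), in RPKM on a log axis, with 95% Poisson intervals on fragments. Tlr2 is highest in both libraries, and the intervals of the libraries do not overlap for Tlr1, Tlr2, Tlr4, Tlr7, Tlr8, Tlr13 and Tlr3.

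The order of the levels in the knockout library was Tlr2, Tlr13, Tlr7, Tlr8, Tlr4, Tlr1, Tlr6, Tlr9, Tlr5 and Tlr3. In it the intervals of neighbours overlapped for Tlr8 and Tlr4, for Tlr6 and Tlr9, and for Tlr5 and Tlr3. In the control library the order was Tlr2, Tlr13, Tlr1, Tlr7, Tlr8, Tlr4, Tlr9, Tlr6, Tlr3 and Tlr5. There only Tlr2 was set apart from its neighbour, and each further pair of neighbours had overlapping intervals. Tlr1 stood below Tlr7, Tlr8 and Tlr4 in the knockout library and above them in the control library.

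The summed level of the 5 endosomal receptors was 170 RPKM in the knockout library and 86.9 RPKM in the control library, a ratio of 1.96. The summed level of the 5 surface receptors was 228 and 191 RPKM in the knockout and control libraries, a ratio of 1.19. Endosomal receptors thus made up 42.7% of the summed level in the knockout library and 31.3% in the control library. Without division by length, they made up 47.7% of receptor reads in the knockout library (46.2% to 49.3%) and 36% in the control library (33.4% to 38.6%). Tlr13 and Tlr7 held 19.7% and 14.2% of the summed level in the knockout library, against 12.7% and 7.33% in the control library. Tlr2 held 44.4% in the knockout library and 50.5% in the control library.

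The sums are carried by the abundant genes, and the medians of the groups lay closer together. The median log2 ratio was 0.57 over the endosomal receptors and 0.33 over the surface receptors, a difference of 0.24, against a median of -0.01 over all genes with at least 50 reads and 0.04 over those with at least 1000. The log2 ratios ran from -1.27 (Tlr3) to 1.48 (Tlr7) among endosomal receptors and from -0.77 (Tlr1) to 0.86 (Tlr4) among surface receptors, so the range of the surface receptors lay wholly within that of the endosomal receptors. The 3 endosomal receptors with higher levels in the knockout library, Tlr7, Tlr8 and Tlr13, are those on the X chromosome. The 251 X-linked genes with at least 1000 reads had a median log2 ratio of 0.07, against 0.04 for 8791 autosomal genes. Xist, which is transcribed from the inactive X chromosome, was at 353 and 249.5 CPM in the knockout and control libraries, a ratio of 1.41 (1.25 to 1.6), and all 1570 Y chromosome genes together had 619 and 431 reads. The part of the animals' sex in the receptor ratios was not tested.

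**Figure D3:**
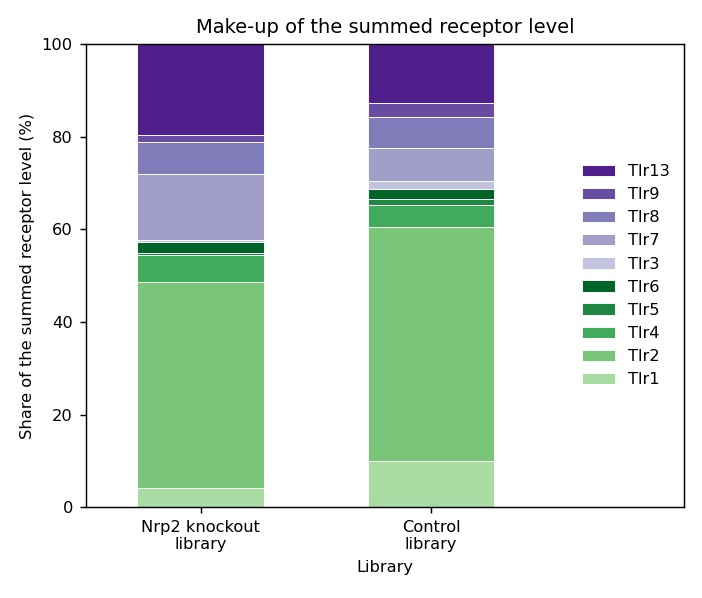
Share of each receptor in the summed level (RPKM) of all 10, with surface receptors in green and endosomal receptors in purple. The purple part is 42.7% in the knockout library (left) and 31.3% in the control library (right), with larger parts for Tlr13 and Tlr7 in the knockout library.

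The stretches before the RefSeq start sites are printed for Tlr13, Tlr8 and Tlr9, the endosomal receptors whose windows held the GAGGAA core described here. RefSeq windows were held for 8 of the 10 receptors, 10 windows in all, and 250 bases before each start were searched on both strands. The motifs were GAGGAA, the core bound by PU.1-type ETS factors of myeloid cells, and TATAAA, the letters of a TATA box. An interferon response element core (GAAA, any 2 bases, GAAA) and an NF-kB site (GGGA, any base, TT, any base, CC) were searched as well. GAGGAA was in windows of 4 receptors (Tlr1, Tlr8, Tlr9 and Tlr13), 4 of 10 windows against 23.3% of 32851 windows of all genes. TATAAA was in windows of Tlr6 and Tlr8 (12.4% of all). It lay 109, 150 and 180 bases before a RefSeq start of Tlr6, and 89 and 91 bases before that of Tlr8. The interferon response element core was in a window of Tlr6 (2.98% of all), and the NF-kB site in windows of Tlr2 and Tlr3 (0.98% of all). Some windows lay partly in GENCODE exons of the same gene. These exons covered 178 of 250 bases for Tlr3, 159 for Tlr2 and 211 for 1 window of Tlr1. They covered at most 71 bases in the other windows. The Tlr3 window, with its NF-kB site, lay wholly within the GENCODE gene, so this site is not before the GENCODE start. The same held for the Tlr6 window with the interferon response element core, which lay between exons of the GENCODE gene. Matches describe letters and do not show binding. The sequences are from RefSeq on GRCm38.p6, 5′ to 3′ on the gene's strand, with that of Tlr13 ended where the GENCODE transcript begins. Capitals mark GAGGAA or its reverse complement in each, and in Tlr8 also the overlapping TATAAA and its reverse complement.
Tlr13 (chrX:106143025-106143203, plus strand): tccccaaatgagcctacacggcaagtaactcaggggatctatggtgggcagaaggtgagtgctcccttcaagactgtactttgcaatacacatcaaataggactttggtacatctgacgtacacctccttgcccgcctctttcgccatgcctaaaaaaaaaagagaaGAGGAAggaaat
Tlr8 (chrX:167264330-167264579, minus strand): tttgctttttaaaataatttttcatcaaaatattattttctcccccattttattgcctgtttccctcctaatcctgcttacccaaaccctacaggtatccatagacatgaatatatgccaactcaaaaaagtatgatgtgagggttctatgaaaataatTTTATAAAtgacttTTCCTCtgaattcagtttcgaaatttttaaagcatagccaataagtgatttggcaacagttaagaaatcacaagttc
Tlr9 (chr9:106222348-106222597, plus strand): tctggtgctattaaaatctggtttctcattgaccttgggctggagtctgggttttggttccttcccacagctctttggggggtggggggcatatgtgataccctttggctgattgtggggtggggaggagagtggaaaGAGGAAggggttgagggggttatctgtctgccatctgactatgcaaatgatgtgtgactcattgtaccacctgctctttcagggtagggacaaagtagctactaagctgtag
Tlr13 and Tlr9 thus held the same core on the same strand, at 83 and 112 bases before their RefSeq starts. The surface receptor Tlr1 also held it on that strand, at 23 bases before a RefSeq start. The window of Tlr3 held no GAGGAA, and Tlr7 had no window. The part of these matches in the receptor ratios was not tested.

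Mice carry 2 further endosomal receptors outside this set, Tlr11 and Tlr12, which bind profilin of protozoa and are known from dendritic cells and macrophages. Tlr12 (chromosome 4, 128615443 to 128618619, minus strand) had 988 reads in the knockout library and 3186 in the control library, or 4.64 and 15.3 RPKM, a 3.29-fold lower level (2.2 to 4.97). Tlr11 (chromosome 14, 50357914 to 50363663, plus strand) had 134 and 587 reads in the knockout and control libraries and was 4.46-fold lower (1.53 to 15.0), on 5.58 and 12.5 fragments. Their intervals overlapped that of Tlr3.

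Markers of conventional dendritic, B, T and NK cells were mostly called lower in the knockout library. Over all genes with at least 50 reads, 14.7% were called lower and 10.8% higher. Of 12 conventional dendritic cell markers, 8 were called lower in the knockout library and 0 higher. Xcr1, among those called lower, was at 0 in the knockout library and on 2.36 fragments in the control library, and its interval included 1. The median log2 ratio of the 12 markers was -1.38, or -1.23 with Xcr1 held at its bound of 3 fragments. Their summed level was 834 and 1086 CPM in the knockout and control libraries, most of it Clec10a and Cd24a, at 308 and 365 CPM in the knockout library and 371 and 246 CPM in the control library. Of 9 B cell markers with at least 50 reads, 7 were called lower, 3 of them with an interval below 1, with summed levels of 29 and 215 CPM in the knockout and control libraries, led by Ighm (12.1 and 122 CPM) and Igkc (4.43 and 54.7 CPM). Pax5 and Blk were at 0 in the knockout library, but on only 1.19 and 0.511 fragments in the control library, and their intervals included 1. Of 10 T cell markers 9 were called lower, with summed levels of 66.2 and 198 CPM in the knockout and control libraries, led by Cd4 (35 and 100.2 CPM) and Trac (4.55 and 17.3 CPM). Of 8 NK cell markers 6 were called lower, 3 of them with an interval below 1, with sums of 27.3 and 78 CPM, led by Gzmb (11.3 and 30.9 CPM) and Gzma (5.2 and 18.3 CPM). The part of these cells in the ratios of the 10 receptors, Tlr11 and Tlr12, above or below 1, was not tested. As background, Tlr3, Tlr11 and Tlr12 are known from dendritic cells, Tlr11 and Tlr12 also from macrophages, and Tlr9 from B cells and plasmacytoid dendritic cells. The marker list of plasmacytoid dendritic cells, given below, had a median log2 ratio of 0.06 (-0.01 with Cox6a2 held at its bound).

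Myeloid markers lay on both sides of 1. Of all genes with at least 50 reads, 10.8% were called higher and 14.7% lower, 25.5% either way. Of 12 macrophage markers, 1 (Mertk) was called higher and 0 lower in the knockout library, with a median log2 ratio of 0.18 and summed levels of 49378 and 39633 CPM in the knockout and control libraries, most of them Apoe (18685 and 12399 CPM) and Lyz2 (15875 and 12932 CPM). The log2 ratios of the 12 macrophage markers ran from -0.46 (Adgre1) to 1.84 (Mertk), with 6 intervals above 1 and 5 below 1. Of 10 monocyte markers 3 were called higher (Ly6c2, Chil3 and Fn1) and 5 lower. The 5 were Ccr2, Plac8, Cx3cr1, Treml4 and Cd300e, the interval of Cd300e including 1. The median log2 ratio of the 10 was -1.15, from -3.20 (Treml4) to 4.16 (Chil3), with 4 intervals above 1 and 4 below 1. Their summed levels were 11677 and 4155 CPM in the knockout and control libraries, led by Chil3 (6067 and 338 CPM) and Fn1 (4063 and 1788 CPM). Of 12 neutrophil markers with at least 50 reads, 4 were called higher (Ly6g, Ngp, Ltf and Lcn2) and 1 lower (Mmp9), with sums of 1745 and 1748 CPM, led by S100a9 (449 and 297 CPM) and Retnlg (279 and 347 CPM), and Ly6g and Camp were at 0 in the control library. Ly6g had 4 fragments in the knockout library, and its interval included 1. Of 10 plasmacytoid dendritic cell markers 2 were called higher (Klk1 and Cox6a2) and 1 lower (Ly6d), with sums of 187 and 226 CPM, led by Bst2 (108 and 146 CPM) and Tcf4 (50.8 and 44.4 CPM), and Cox6a2 was at 0 in the control library. The intervals of Klk1, Cox6a2 and Ly6d included 1, on 5.29, 3.67 and 3.12 fragments in the knockout library and 0.574, 0 and 3.94 in the control library. Of that list 0 intervals lay above 1 and 1 below 1, that of Bst2 (ratio 0.741, 0.618 to 0.889). Tumour epithelial and stromal markers had summed levels of 129 and 152 CPM in the knockout library and 194 and 295 CPM in the control library. Called lower were 3 of 7 epithelial markers (Krt19, Cdh1 and Muc1) and 4 of 9 fibroblast and endothelial markers (Pdgfrb, Pecam1, Cdh5 and Kdr), the intervals of Pdgfrb and Cdh5 including 1. The most counted of these lists were Krt18 and Cdh1 (41.2 and 34.4 CPM in the knockout library, 45.4 and 70.9 CPM in the control library), and Col1a2 and Col1a1 (50.9 and 48.8 CPM in the knockout library, 101 and 89.2 CPM in the control library). Cldn4 was at 0 in both libraries. The part of myeloid make-up in the receptor ratios was not tested.

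**Figure D4:**
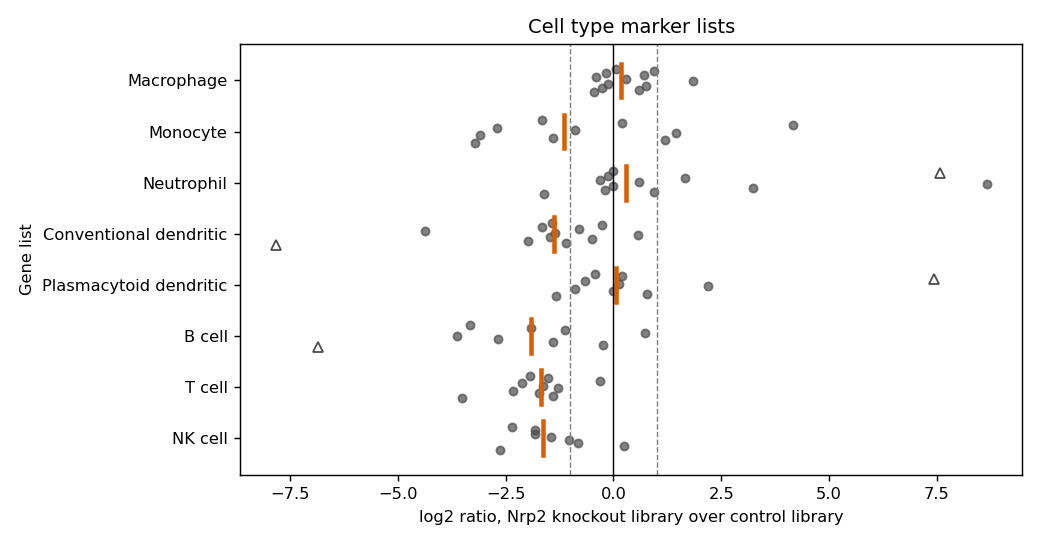
Log2 ratio, knockout library over control library, of marker genes with at least 50 reads (points) and the median of each list (orange bars). Open triangles are genes at 0 in one library, whose position depends on the prior count; conventional dendritic, B, T and NK cell lists lie mostly left of the dashed line at 2-fold, and macrophage markers mostly between the dashed lines.

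Among 6 proteins that work with the surface receptors, 0 were called higher and 1 lower, beside 4.5% and 4.02% of the genes with 1000 reads or more. Cd14, which hands lipopolysaccharide to Tlr4, was at 1969 and 1614 CPM in the knockout and control libraries, a ratio of 1.22 (1.16 to 1.28). Ly96, which encodes MD-2, the lipopolysaccharide-binding partner of Tlr4, had 895 and 952 reads, a ratio of 0.921 (0.523 to 1.67). Lbp, the plasma protein that carries lipopolysaccharide, had 907 and 595 reads (ratio 1.49, 0.773 to 3.09), and Cd36, a scavenger receptor that aids Tlr2, 7237 and 6383 reads (ratio 1.11, 0.905 to 1.37). Ly86, which encodes MD-1, was the 1 of these 6 genes past 2-fold: it was at 222 CPM in the knockout library and 516 CPM in the control library, 2.33-fold lower (2.09 to 2.6). Its partner Cd180, a Toll-like receptor homologue without a TIR domain, was at 65.6 and 75 CPM, a ratio of 0.875 (0.685 to 1.12). The median log2 ratio of the 6 genes was 0.02.

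Of 11 chaperones and trafficking proteins of the endosomal receptors, 0 passed 2-fold in either direction, 0 had an interval above 1 and 3 below 1, and the median log2 ratio was -0.18. Of all genes with 1000 reads or more, 18.7% had an interval above 1 and 15.2% below 1. Unc93b1, which escorts the endosomal receptors from the endoplasmic reticulum, was at 795 and 1024 CPM in the knockout and control libraries, a ratio of 0.776 (0.726 to 0.83). Hsp90b1, the chaperone gp96, was at 645 and 786 CPM (ratio 0.821, 0.761 to 0.886), and its co-chaperone Cnpy3 at 85.1 and 96.2 CPM (ratio 0.885, 0.713 to 1.1). Slc15a4, a lysosomal transporter needed for Tlr7 and Tlr9 signalling, had a ratio of 0.947 (0.7 to 1.29). The ratios of Cnpy4, Rab7b, Ap3b1, Hps4, Plscr1 and the kinase Syk lay between 0.662 (Cnpy4) and 1.16 (Ap3b1), each with an interval that included 1.

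A list of 7 genes held a thiol reductase and endosomal and lysosomal proteases, some of which cleave the ectodomains of endosomal receptors. Of these 7 genes, 1 was called higher and 0 lower (4.5% and 4.02% of the genes with 1000 reads or more), and the median log2 ratio was 0.56. The interval lay above 1 for 5 of them, beside 18.7% of the genes with 1000 reads or more, and below 1 for 1, Ifi30, the thiol reductase, with a ratio of 0.786 (0.737 to 0.839). Ctsk, cathepsin K, was at 44.7 and 18.2 CPM in the knockout and control libraries (ratio 2.46, 1.6 to 3.94). Ctsl was at 2043 and 1209 CPM (ratio 1.69, 1.6 to 1.78) and Lgmn, the asparagine endopeptidase, at 3058 and 2081 CPM (ratio 1.47, 1.41 to 1.53). Ctss, cathepsin S, was at 10995 and 5754 CPM in the knockout and control libraries (ratio 1.91, 1.86 to 1.96).

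Of 5 adaptor genes with reads, 0 were called higher and 1 lower (median log2 ratio -0.14). Of all genes with 1000 reads or more, 4.5% were called higher and 4.02% lower. Myd88, the adaptor shared by all receptors here except Tlr3, was at 89.3 CPM in the knockout library and 134 CPM in the control library, 1.5-fold lower (1.24 to 1.82). Ticam2, which encodes TRAM, the bridge from Tlr4 to TRIF, had 908 and 1784 reads and was 2-fold lower (1.24 to 3.23). Ticam1, which encodes TRIF, had 1256 and 1361 reads (ratio 0.905, 0.564 to 1.48), and Tirap, the bridge from Tlr2 and Tlr4 to MyD88, 1050 and 694 reads (ratio 1.48, 0.806 to 2.88). Pik3ap1, which encodes the adaptor BCAP, had a ratio of 1.05 (0.881 to 1.25), and Sarm1 was listed at 0 in both libraries.

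Of 17 kinases and ubiquitin ligases downstream, 0 passed 2-fold, 4 intervals lay above 1 and 1 below 1, and the median log2 ratio was 0.12. Over all genes with 1000 reads or more, 18.7% of intervals lay above 1 and 15.2% below 1. Traf6, the ubiquitin ligase of the MyD88 branch, was at 117 and 63 CPM in the knockout and control libraries (ratio 1.86, 1.47 to 2.38). Tbk1, a kinase of the TRIF branch, was at 117 and 64 CPM (1.84, 1.45 to 2.35), Irak2 at 156 and 85.8 CPM (1.81, 1.48 to 2.24) and Map3k7, which encodes TAK1, at 73.2 and 42.4 CPM (1.72, 1.29 to 2.34). These 4 genes were the ones of the 17 with an interval above 1, a share near that of all genes. Of 12 transcription factors 0 passed 2-fold, with a median of -0.20, 3 intervals above 1 and 6 below 1. Nfkb2 was at 84.1 CPM in the knockout library and 166 CPM in the control library, 1.97-fold lower (1.63 to 2.37). Irf3, which acts after TRIF, was 1.79-fold lower (1.3 to 2.45), whereas Irf7, which acts after Tlr7 and Tlr9, was at 201 and 114 CPM in the knockout and control libraries (1.77, 1.48 to 2.13), and Jun was at 1054 and 643 CPM (1.64, 1.52 to 1.77).

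Of 16 inhibitors of the pathway 0 were called higher and 2 lower, with 6 intervals above 1 and 1 below 1 (median log2 ratio 0.21). Of all genes with 50 reads or more, 10.8% were called higher and 14.7% lower. Of those with 1000 or more, 18.7% had an interval above 1 and 15.2% below 1. Dusp1, a phosphatase of MAP kinases, was at 2208 and 1207 CPM in the knockout and control libraries (ratio 1.83, 1.73 to 1.93), and Tnfaip3, which encodes the ubiquitin editor A20, at 1224 and 739 CPM (1.66, 1.54 to 1.78). Inpp5d, the phosphatase SHIP1, had a ratio of 1.55 (1.37 to 1.76). Tnip3, a partner of A20, had 1331 and 3197 reads in the knockout and control libraries and was 2.45-fold lower (1.69 to 3.56). The other one called lower, Sigirr, had 147 and 403 reads and a ratio of 0.358 (0.105 to 1.14).

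Of 25 genes that Toll-like receptors are known to induce, 3 were called higher (Il12a, Ifnb1 and Marco) and 4 lower (Il1b, Il12b, Il23a and Il10), with a median log2 ratio of -0.12. These 7 of 25 stand beside 25.5% called either way among all genes, a share near the background. The intervals of Il12a, Ifnb1 and Il23a included 1, on 4.79, 5.17 and 6.08 fragments in the knockout library and 0.723, 0.191 and 7.45 in the control library. Over the list, 5 intervals lay above 1 and 9 below 1, beside 12.6% and 11.1% of all genes with 50 reads or more. Of its 21 genes with 1000 reads or more, 1 was called higher and 2 lower, beside 4.5% and 4.02% of all such genes. Il10, an anti-inflammatory cytokine, had 1084 reads in the knockout library and 4132 in the control library, 3.89-fold lower (2.69 to 5.7). Il1b was at 1590 and 3675 CPM in the knockout and control libraries, 2.31-fold lower (2.22 to 2.41), and Ptgs2, which encodes cyclooxygenase 2, was at 412 and 781 CPM, 1.89-fold lower (1.74 to 2.06). Marco, a scavenger receptor, was at 51.2 and 18.5 CPM in the knockout and control libraries (ratio 2.77, 1.82 to 4.4).

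**Figure D5:**
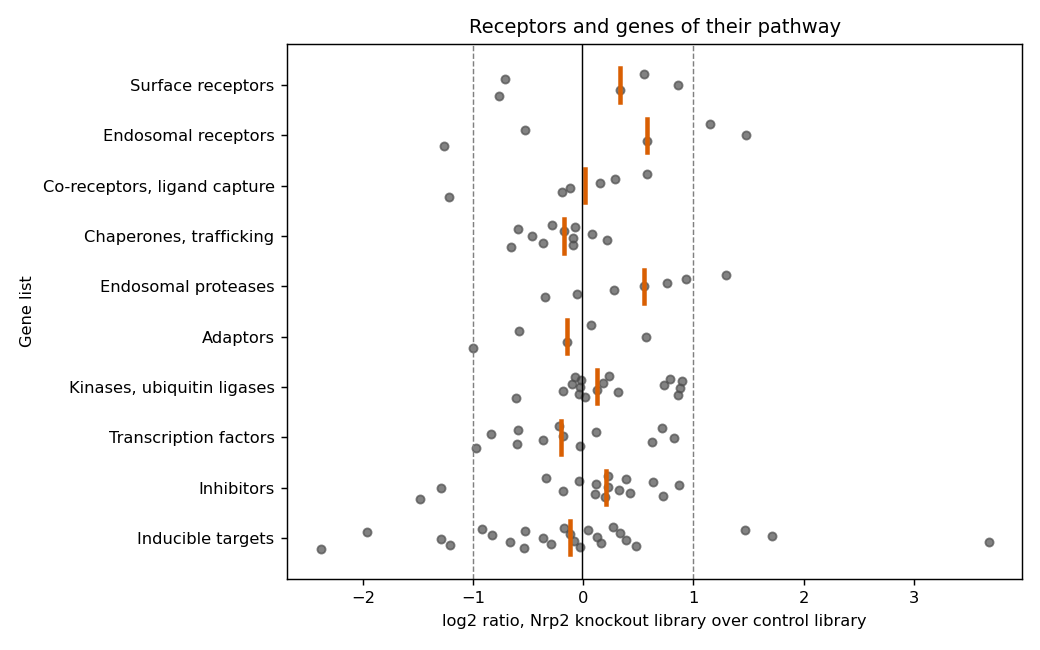
Log2 ratio, knockout library over control library, of the 10 receptors and of genes with at least 50 reads in each list of their pathway (points), with the list's median (orange bars), 2-fold (dashed) and the median of all genes (black line). Medians are 0.57 for endosomal receptors (from -1.27 to 1.48), 0.56 for endosomal proteases, 0.33 for surface receptors, 0.21 for inhibitors and 0.12 for kinases. Co-receptors (0.02), inducible targets (-0.12), adaptors (-0.14), chaperones (-0.18) and transcription factors (-0.20) centre near the black line.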

How the data were processed

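Raw read counts for each Ensembl gene were deposited by the authors. Libraries were made with a stranded mRNA kit, per the labels' protocols. Per the submitters' processing notes the tools were cutadapt, HISAT2 and featureCounts on GRCm38. Their versions, options, annotation release and use of strand were not found in these sources. The counts came from read 1, per the file headers. The deposited comparison table holds a log2 fold change, its standard error and a score, a p-value, an adjusted p-value, and a signal that equals the counts divided by 1.01 (knockout) and 0.995 (control). Symbols, coordinates and exon lengths came from GENCODE M21 (GRCm38), which matched 49326 of 49585 identifiers.

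Libraries were scaled by TMM in edgeR 4.0.16 (factors 0.977 and 1.02 for knockout and control; R 4.3.3, DESeq2 1.42.0 for an alternative). Log2 ratios used a prior of 0.5 counts, and their computation was tested on simulated data. A gene was called at 2-fold or more. Undivided and fragment-scaled reads gave intervals; a count of 0 allows 3 fragments, or 72 reads in the knockout and 141 in the control library. Named genes are the receptors, all co-receptors, chaperones and adaptors, the 4 largest ratios with at least 1000 reads of each further pathway list, and the 2 most counted genes of each marker list. One gene that this rule names is not reported here. Receptors and lists were chosen with earlier results of these data known. Genes called in lists but outside this rule were named after their values were seen, as were Tlr11 and Tlr12. Alternatives were other scalings, priors, count minimums, interval scales and lengths.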

Additional observations from a re-analysis of the deposited data

How the results depend on the processing

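No paired analysis was possible because each group has 1 library, and for the same reason no replicate could be left out. Across 7 alternatives for each receptor (other scalings, priors, the authors' deposited log2 fold changes, and a scaling added after the data were seen that sets the median macrophage marker to a ratio of 1), the direction was kept for all 10 receptors, and 69 of 70 values stayed within the interval. All 7 alternatives use the same 2 libraries. A change of scaling shifts every receptor by the same amount. No alternative moved a log2 ratio by more than 0.18, and the ratio nearest to no difference was 0.33 (Tlr2). The kept directions therefore say little about how firm the ratios are. The deposited fold changes nearly repeat the ratios under DESeq2 size factors, with Tlr7 at 1.49 in both, so these 2 alternatives are not separate. Under the added scaling Tlr2, and with it the surface median, moved to a log2 ratio of 0.16, and Tlr13 to 0.98, short of 2-fold. The endosomal share without division by length was 47.7% (knockout) and 36% (control), and without Tlr2, also added later, 76.9% and 63.2%. Genes at least 2-fold apart were 39.2% of genes with any reads and 8.52% of those with at least 1000, against 25.5%. Intervals on undivided reads left out 1 for all 10 receptors, against 7.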

Other observations

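Other sensors of nucleic acids and bacterial products, in lists chosen after the data were seen, were also read. Of 6 genes of cytosolic DNA sensing with reads, 2 passed 2-fold on the lower side in the knockout library and 0 on the higher side. The shares over all genes with 1000 reads or more were 4.02% lower and 4.5% higher. Cgas, the enzyme that senses cytosolic DNA, had 307 reads in the knockout library and 1123 in the control library, 3.73-fold lower (1.82 to 8.03), and Tmem173, which encodes its effector STING, was at 107 and 221 CPM, 2.06-fold lower (1.75 to 2.42). Ifi204 was at 256 and 135 CPM in the knockout and control libraries, a ratio of 1.9 (1.62 to 2.24). Of 6 genes of the RIG-I-like branch and 8 of the NOD-like branch, 0 passed 2-fold. Ifih1, which encodes the double-stranded RNA sensor MDA5, had a ratio of 1.53 (1.18 to 2) where Tlr3, the endosomal receptor of the same ligand, was lower, and Nod1 was 1.95-fold lower (1.42 to 2.66).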
